A study of Mus musculus with 24 samples.

Results

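The change from 8 to 24 h after activation was followed in CD8+ T cells labelled as a conditional knockout (cKO) of Tcf7, by comparing the 3 libraries taken at 24 h with the 3 taken at 8 h, 6 of the 24 libraries of the series. The same 3 mice, mice 1 to 3, gave a library at each time, so the mouse number pairs the libraries. All 24 libraries came from CD8+ T cells of OTI mice, whose T cells carry a transgenic receptor for an ovalbumin peptide, isolated with CD8 microbeads out of spleen and lymph nodes. The genotype of mice 1 to 3 was E8i-cre+, Tcf7FL/FL, OTI+, in which the E8i enhancer drives cre in CD8 lineage cells. Mice 4 to 6, the libraries labelled wild type (WT), were E8i-cre-, Tcf7FL/FL, OTI+, so they carried the same floxed alleles. A first sample was taken at 0 h. The remaining cells were then kept on plates coated with antibodies to CD3 and CD28 at 1 ug/mL, with mouse IL2 at 6 ng/mL, and sampled at 4, 8 and 24 h. A sort of 1000 cells gave the RNA of a library, which was read with the full-length Smart-seq2 method for small populations. The series title places the work within a study of TCF1, the protein of Tcf7, and the chemokine receptor CXCR6 in CD28 co-stimulation.

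A naive CD8+ T cell is small and quiescent. Signals through its receptor and CD28 first switch on immediate early transcription factors and then cytokine and chemokine genes, while MYC and mTOR drive growth. Over the following hours the cell enlarges, duplicates its DNA and enters rapid divisions, and it takes up the metabolism of a growing cell. The comparison of 24 h with 8 h addresses the second of these steps, between early activation and cycling, in cells labelled as lacking Tcf7.

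In these cells every listed gene of DNA replication and mitosis, many of them near 0 at 8 h, was called higher at 24 h. Enzymes of serine and asparagine synthesis, glycolysis and mitochondrial respiration rose with them. Immediate early factors, chemokines, several cytokines, interferon-stimulated genes and most genes of quiescence and naive homing fell. The WT mice showed a like change, and Tcf7 itself was the 1 gene whose change was called different between the genotypes. That call was lost in some of the alternative fits.

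The target gene was examined first. Tcf7 RNA over the whole gene (chromosome 11, 52252371 to 52283014, minus strand, mm10) was at 127, 73.6 and 108 TPM at 8 h, then 37.5, 35.7 and 38.3 TPM at 24 h in mice 1, 2 and 3, where TPM, transcripts relative to a fixed library total, is a length-corrected level. In WT mice 4, 5 and 6 it was at 87.3, 52.6 and 81.3 TPM at 8 h, then 62.6, 77.0 and 68.8 TPM at 24 h. At 8 h the range in the libraries labelled cKO thus overlapped that in the WT libraries, and at 24 h it lay below it. At 0 h Tcf7 was at 681 to 719 TPM in the libraries labelled cKO and 499 to 567 TPM in WT, and at 4 h at 251 to 271 and 180 to 205 TPM. The gene totals do not tell which exons were read, so they do not show whether the floxed part is gone, and cKO is used here as the label.

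The cKO libraries held 6158385 to 7383919 expected counts at 8 h and 8455994 to 9700397 at 24 h. Genes with a count numbered 15193 to 16217 at 8 h and 13694 to 14081 at 24 h. Reads of the ribosomal RNA gene Rn45s took 14.7% to 15.6% of counts at 8 h and 7.39% to 9.41% at 24 h. On the first principal component of all 24 libraries, which held 55.0% of the variance, the 24 h libraries lay at 94.6 to 95.2 and the 8 h libraries of mice 1 and 3 at 5.1 and 9.6, while that of mouse 2 stood apart at 24.0, on the side of 24 h. CD8 T cell markers were present at both times, with Cd8a at 135 to 164 TPM at 8 h and 149 to 157 TPM at 24 h. Of the 9 markers 7 were listed in the files, and 6 of these, all but Cd8a, were called lower at 24 h. The summed level of the 7 was 1896 to 2166 TPM at 8 h and 1418 to 1548 TPM at 24 h. Markers of other cells summed to 11.6 to 16.1 TPM at 8 h and 24.5 to 28.6 TPM at 24 h for B cells, mostly Cd79b, at 2.6 to 4.6 and 14.4 to 15.9 TPM, and Cd74, at 5.73 to 8.68 and 8.92 to 11.6 TPM, with Pax5 and H2-Aa at 0 in the 6 libraries. They summed to 100.5 to 118 and 165 to 178 TPM for myeloid cells, nearly all of it Cst3, with Lyz2, S100a8 and S100a9 at 0. CD4 T cell markers summed to 18.3 to 22.5 and 3.36 to 6.89 TPM, nearly all Cd40lg, with Cd4 at 0 to 0.27 TPM. The summed stromal and endothelial markers went from 12.3 to 19.1 TPM to 3.29 to 4.37 TPM, nearly all Pecam1, and those of NK cells were between 2.31 and 6.54 TPM. The share of Rn45s, the number of genes with a count and these marker sums moved with time, and their part in the results was not tested. Without the reads of Rn45s 3253 genes were called higher and 3327 lower, beside 2887 and 3686 with them, and 6206 of the calls were shared.

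Of 11470 genes tested, 6573 (57.3%) were called different between 24 and 8 h by edgeR's quasi-likelihood test at an adjusted p under 0.05. There were 2887 genes higher at 24 h (25.2%) and 3686 lower (32.1%). At least 2-fold differences were called for 1216 higher genes (10.6%) and 1599 lower genes (13.9%). With limma on log2(TPM + 1), where the added 1 shrinks the fold of low genes, the 2-fold counts were 984 higher and 780 lower, so that the larger side changed, and the other alternatives gave 1038 to 1447 higher and 1047 to 1869 lower. The 3 libraries at 24 h did not overlap the 3 at 8 h for 7413 genes (64.6%). Without the 8 h library of mouse 2 the call was made for 6298 genes, and 2690 of the 2815 genes called with at least a 2-fold difference kept their call. The median log2 fold change over all genes was -0.09. With this many genes called, a single call says little by itself, and gene lists are read against these shares and this median. All values are relative levels within a library: less RNA per cell and fewer cells that make an RNA cannot be told apart in such bulk samples.

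**Figure D1:**
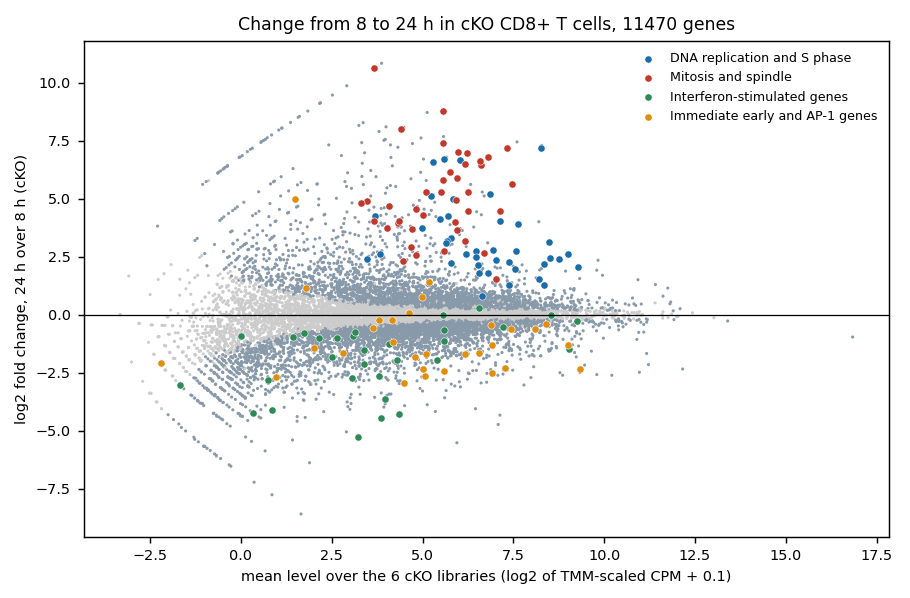
Each point is 1 of 11470 genes, with the mean level over the 6 cKO libraries on the x axis (log2 of scaled CPM) and the log2 fold change of 24 h over 8 h on the y axis. Grey-blue points were called and light grey points were not. The genes of replication (blue) and mitosis (red) all lie above 0, while most interferon-stimulated genes (green) and immediate early genes (orange) lie below it.

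All 40 of 40 genes of DNA replication and S phase rose, with a median log2 fold change of 2.69 and a range of 0.81 to 7.17. The lists named here were chosen with earlier results of these data known, so their direction is a description. Among them, Rrm2 (chromosome 12, 24708241 to 24714146), the regulated subunit of the reductase that makes deoxynucleotides, was at 3.95, 2.80 and 2.82 TPM at 8 h, then 489.7, 497 and 448 TPM at 24 h in mice 1, 2 and 3. Its log2 fold change was 7.17 (SE 0.350, adjusted p = 1.06e-11). Its partner Rrm1 went from 29.3, 31.6 and 27.6 TPM to 269.9, 276 and 252 TPM, so the subunit that had been scarce changed by far the more. The replicative helicase was already present at 8 h: Mcm5 rose from 60.3, 74.8 and 60.2 to 349.9, 374 and 352 TPM and Mcm3 from 80.0, 88.2 and 75.3 to 497, 530 and 513 TPM. Pcna, the sliding clamp of DNA polymerases, rose from 200.1, 208 and 215 to 623, 610.2 and 609 TPM. Lig1, which seals the fragments of the lagging strand, went from 8.15, 8.04 and 9.41 to 140, 147 and 145 TPM. Tk1, the S phase thymidine kinase, stood at 1.30, 0.88 and 1.30 TPM at 8 h, then 131, 123 and 116 TPM at 24 h. The groups did not overlap for any of the 40 genes, beside no overlap for 64.6% of all genes tested. The summed level of the list went from 1305 to 1374 TPM to 7179 to 7391 TPM. Ccne1, the G1/S cyclin, rose by 2.50 on the log2 scale, from 27.8, 21.3 and 19.2 to 147, 134 and 118 TPM.

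Promoter letters of the E2F factors, which drive S phase genes, were looked for in windows from 250 bases before to 50 bases after the RefSeq start site (GRCm38.p6). Windows were found for 9207 of the 11470 genes. The letters TTTGGCGC, TTTCGCGC, TTTCCCGC and TTTGCCGC, on either strand, occurred in 13 of 33 replication genes with a window (39.4%) and in 452 of all 9207 genes (4.91%). The promoters of 3 of these genes are printed because they hold such letters. Each run is the 150 bases before the start site, 5' to 3' on the strand of the gene, with the E2F letters in capitals.
Mcm6 (chr1:128359706-128359855, minus strand): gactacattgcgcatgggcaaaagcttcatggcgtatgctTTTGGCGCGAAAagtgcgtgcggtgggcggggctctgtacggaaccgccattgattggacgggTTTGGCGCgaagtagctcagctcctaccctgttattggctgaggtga
Mcm5 (chr8:75109359-75109508, plus strand): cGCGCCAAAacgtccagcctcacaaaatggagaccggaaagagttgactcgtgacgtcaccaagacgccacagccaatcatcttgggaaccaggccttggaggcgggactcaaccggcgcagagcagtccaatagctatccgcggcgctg
Cdc6 (chr11:98908001-98908150, plus strand): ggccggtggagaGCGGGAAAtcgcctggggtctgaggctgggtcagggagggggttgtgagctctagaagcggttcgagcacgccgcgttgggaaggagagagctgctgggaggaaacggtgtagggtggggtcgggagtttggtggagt
In the Mcm6 promoter a pair of overlapping matches begins 110 and 106 bases before the start and another 47 bases before it, whereas the matches in Mcm5 and Cdc6 begin 149 and 138 bases before it. A match of letters is a description and does not show that a factor bound there.

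All 40 of 40 mitosis and spindle genes rose too, with a higher median log2 fold change of 4.86 and a range of 1.54 to 10.63. Their median was lowest, at 4.09, and highest, at 5.06, among the alternatives run. Cdk1 (chromosome 10, 69335146 to 69352938), the kinase that starts mitosis, was at 1.16, 0.62 and 1.64 TPM at 8 h, then 133, 134 and 126 TPM at 24 h, a log2 fold change of 6.82 with SE 0.198 (adjusted p = 1.18e-24). Its cyclins followed it. Ccna2 went from 2.37, 0.67 and 0.83 to 193, 194 and 188 TPM and Ccnb1 from 2.16, 1.46 and 0.96 to 167, 143 and 117 TPM. Ccnb1 at 24 h was highest in mouse 1 and lowest in mouse 3, an order also seen for Plk1, the polo-like kinase of mitotic entry, at 81.9, 78.4 and 53.6 TPM after 1.63, 1.13 and 0.89 TPM. Top2a, the topoisomerase that untangles chromosomes, rose from 3.07, 1.76 and 1.56 to 109.8, 114 and 109 TPM, and Mki67, the proliferation antigen Ki-67, from 0.43, 0.15 and 0.16 to 24.2, 24.4 and 21.4 TPM. The spindle motor Kif11 rose from 0.87, 0.53 and 0.87 to 32.2, 31.0 and 27.7 TPM and the spindle assembly factor Tpx2 from 0.56, 0.59 and 0.60 to 47.4, 43.0 and 37.1 TPM. Foxm1, a transcription factor of mitotic genes, itself rose from 0.53, 1.26 and 0.69 to 10.7, 13.1 and 10.9 TPM. For Stmn1, which regulates microtubules, the level went from 21.3, 20.1 and 18.8 to 449.6, 475 and 456 TPM. The summed level of the 40 genes was 272 to 325 TPM at 8 h and 3443 to 3863 TPM at 24 h.

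Cell cycle genes of late phases often carry the CHR element near the start site, searched here as TTTGAA on both strands, together with a CCAAT box, searched by its name's letters. The CHR letters were found in 24 of 33 mitosis genes with a window (72.7%) and in 1353 of 9207 genes (14.7%). Both elements stood in 1 window in 21 of the 33 (63.6%) and in 573 of all 9207 (6.22%). For the replication genes the share with both was 9.09%. The promoters of 3 mitosis genes that hold both are printed, 150 bases each, with both elements, on either strand, in capitals.
Cdk1 (chr10:69352913-69353062, minus strand): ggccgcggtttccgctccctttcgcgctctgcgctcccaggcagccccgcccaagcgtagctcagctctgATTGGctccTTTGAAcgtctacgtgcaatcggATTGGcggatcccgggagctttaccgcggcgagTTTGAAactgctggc
Kif11 (chr19:37376232-37376381, plus strand): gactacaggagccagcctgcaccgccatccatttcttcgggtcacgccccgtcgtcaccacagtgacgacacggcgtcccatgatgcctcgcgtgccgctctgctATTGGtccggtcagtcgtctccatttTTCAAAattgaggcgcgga
Cdc20 (chr4:118437344-118437493, minus strand): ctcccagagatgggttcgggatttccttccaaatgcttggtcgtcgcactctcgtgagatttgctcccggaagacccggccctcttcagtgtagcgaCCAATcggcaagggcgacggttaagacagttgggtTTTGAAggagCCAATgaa
The CHR letters nearest the start begin 15 bases before it in Cdk1, 19 in Kif11 and 18 in Cdc20, and a CCAAT box begins 48, 45 and 53 bases before the start.

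The 15 largest increases were mostly genes that 8 h libraries hardly held. Ttk, the Mps1 kinase of the spindle checkpoint (chromosome 9, 83834689 to 83872389), had 0 counts in the 8 h libraries and was at 13.6, 14.6 and 15.8 TPM at 24 h, at least 169-fold higher when the 8 h group is set to a floor of 3 counts. Ebi3, a subunit of the cytokines IL-27 and IL-35, likewise had 0 counts at 8 h and was at 21.8, 15.8 and 13.9 TPM at 24 h, at least 75.2-fold higher. It is the 1 gene of the 15 known chiefly for a role outside the cell cycle and its repair. Nusap1, a spindle protein, went from 0.08, 0.23 and 0 to 55.1, 55.6 and 50.5 TPM. Melk, a kinase of dividing cells, had 3 counts at 8 h and was 468-fold higher at 24 h, with a 95% counting interval of 160 to 2272. Esco2, which acetylates cohesin, had 3 counts and a ratio of 299 (102 to 1453). Kif2c, a kinesin that takes microtubules apart, had 3 counts and a ratio of 282 (96.3 to 1369), and Fancd2, of the Fanconi repair pathway, had 2 counts and a ratio of 318 (87.7 to 2627). These intervals and floors cover counting error only. The remaining 8 were the histone genes Hist1h2bj, Hist1h2ab, Hist1h3i, Hist1h2bk, Hist1h1b, Hist1h3c, Hist2h3b and Hist1h3h, at 12.9 to 110.1 TPM at 24 h and at most 0.87 TPM at 8 h. Histone genes of this kind are near-identical copies whose reads can be split among them, and most of their RNA lacks the poly(A) tail that Smart-seq2 primes on, so their single values are uncertain.

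Genes of DNA damage and checkpoints rose in 21 of 25 cases and fell in 2, with a median of 2.15. Rad54l, a motor protein of homologous recombination, rose from 0.46, 0 and 0.61 to 36.9, 37.7 and 38.9 TPM. Chek1, the checkpoint kinase of replication stress, rose from 2.94, 2.22 and 3.07 to 27.8, 31.7 and 31.6 TPM. The members that fell were Cdkn1a, the p21 inhibitor of cyclin-dependent kinases, from 54.2, 59.1 and 69.1 to 22.9, 19.4 and 21.7 TPM, and Atm, the kinase that senses double-strand breaks, by -0.37 (adjusted p = 0.0155, a call lost under 5 alternatives with values from -0.43 to -0.26). 

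MYC network and G1 cyclin genes did not move as 1 group: 5 of 19 rose and 8 fell, and the median of 0.11 changed sign among the alternatives (-0.18 to 0.23). Over all genes tested 25.2% were called higher and 32.1% lower. Myc itself, which encodes a transcription factor of growth, fell in each mouse, from 837, 956 and 983 to 467, 472 and 480 TPM, a log2 fold change of -1.01 (SE 0.0943), and still stood above its 0 h mean of 159 TPM. Cdkn1b, the p27 inhibitor of cyclin-dependent kinases, fell from 9.60, 6.91 and 11.0 to 3.74, 3.74 and 4.09 TPM. The D cyclins parted. Ccnd3 rose from 94.3, 64.2 and 87.7 to 334, 321 and 294 TPM, whereas Ccnd2 fell by 0.33 on the log2 scale, a call lost without mouse 2 (adjusted p = 0.0816). Mxd3, a MAX partner found in S phase cells, had 1 count at 8 h and was at 7.65, 7.63 and 5.90 TPM at 24 h.

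Serine, one-carbon and amino acid stress genes rose in 17 of 24 cases and fell in 2, with a median of 1.19. Asns (chromosome 6, 7675169 to 7693254), the asparagine synthetase and a classic target of the stress factor ATF4, was at 3.75, 5.43 and 5.85 TPM at 8 h, then 152, 197 and 189 TPM at 24 h, a log2 fold change of 5.12 with SE 0.186 (adjusted p = 8.47e-21). Its mean had been 1.08 TPM at 4 h. Cth, which makes cysteine from cystathionine, rose from 4.03, 4.82 and 5.03 to 156, 197 and 206 TPM. Both enzymes were low at 8 h in every mouse and at similar high levels at 24 h. Phgdh, the first enzyme of serine synthesis, rose from 301, 369.8 and 317 to 1249, 1329 and 1304 TPM, and Psph, the last, from 57.03, 64.5 and 52.4 to 220.2, 241 and 262 TPM. Mthfd2, the mitochondrial folate enzyme, rose from 231, 297 and 272 to 495, 553 and 532 TPM. In contrast, the stress factor gene Atf3 fell from 34.2, 46.4 and 50.3 to 12.3, 15.7 and 13.8 TPM and Ddit3, which encodes CHOP, fell by 0.53 (adjusted p = 0.0263), a call lost under 4 alternatives. Eif4ebp1, the 4E-BP1 repressor of cap-dependent translation, rose from 102, 117 and 98.9 to 419, 521 and 553 TPM.

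The letters of the amino acid response element, to which ATF4 and its partners bind, TTGCATCA and TTGCGTCA on either strand, stood in 5 of 22 genes of this list with a window (22.7%) and in 170 of 9207 genes (1.85%). The promoters of 2 of these genes are printed, 150 bases each, with the element in capitals.
Pycr1 (chr11:120643749-120643898, minus strand): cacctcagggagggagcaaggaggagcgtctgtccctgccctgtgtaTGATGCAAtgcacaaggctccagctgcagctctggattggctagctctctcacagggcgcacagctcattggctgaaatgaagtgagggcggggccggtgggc
Nupr1 (chr7:126625471-126625620, minus strand): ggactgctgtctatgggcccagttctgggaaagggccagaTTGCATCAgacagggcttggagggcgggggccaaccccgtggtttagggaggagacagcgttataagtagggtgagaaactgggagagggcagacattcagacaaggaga
The matches begin 103 and 110 bases before the start site. Pycr1 encodes an enzyme of proline synthesis and Nupr1 a small stress protein.

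Of the 14 tested genes listed as amino acid transporters 6 rose and 4 fell, beside 25.2% and 32.1% of all genes. Their median was 0.35 (0.07 to 0.54 among the alternatives). The largest rise was that of Slc43a3, from 3.10, 2.58 and 2.13 to 50.7, 52.6 and 49.6 TPM, whose protein is known as a carrier of purine nucleobases rather than amino acids. Slc7a11, of the cystine exchanger, rose from 3.75, 4.25 and 3.57 to 9.21, 9.33 and 10.1 TPM, and Slc6a9, a glycine carrier, from 1.29, 1.22 and 1.60 to 7.64, 9.67 and 9.24 TPM. Slc1a5, a glutamine carrier, fell from 265, 295 and 297 to 189, 225 and 209 TPM and remained the most abundant of these 4. Aminoacyl-tRNA synthetases, which load amino acids onto tRNA, rose in 16 of 20 cases with 1 fall and a median of 0.45. Gars rose from 237, 279.8 and 239 to 515, 576 and 560.2 TPM. Wars was the member that fell, from 172, 171 and 172 to 123, 119 and 117 TPM.

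Genes of energy metabolism rose by smaller steps, over many members. Of 40 oxidative phosphorylation genes 35 rose and none fell, with a median of 0.52 and a highest value of 0.97, so that no member reached a 2-fold difference. Ndufb10, of respiratory complex I, rose from 147, 124 and 127 to 252, 249.7 and 249 TPM. Mitochondrial ribosomal proteins rose in 27 of 34 cases with none falling and a median of 0.50, among them Mrpl18, from 131, 137 and 131 to 366, 334 and 365 TPM. TCA cycle and glutaminolysis genes rose in 19 of 28 cases and fell in 1, Aco1, with a median of 0.47. Citrate synthase, Cs, rose from 165, 167 and 165 to 269, 283 and 269.8 TPM and Got2, the mitochondrial aspartate aminotransferase, from 93.9, 94.4 and 82.6 to 196, 196 and 188 TPM.

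Glycolysis genes rose in 18 of 25 cases and fell in 2, with a median of 0.58. Several enzymes of its lower part rose. Tpi1 went from 211, 257 and 189 to 849, 858 and 806 TPM, Eno1 from 456, 478 and 379.5 to 1587, 1431 and 1405 TPM and Gapdh from 2909, 3236 and 2816 to 6758, 7051 and 6733 TPM. Ldha, which makes lactate, rose from 2329, 2608 and 2214 to 4317, 4343 and 4201 TPM. The summed level of the list was 9475 to 10741 TPM at 8 h and 18567 to 19335 TPM at 24 h. The 3 genes named here for glucose uptake and the first step of glycolysis were not called. The glucose carrier genes Slc2a1 (28.6, 32.4 and 33.8 TPM at 8 h, 31.2, 30.9 and 29.5 TPM at 24 h) and Slc2a3 (13.1, 11.8 and 13.0 TPM at 8 h, then 12.2, 13.4 and 10.6 TPM) had log2 fold changes of -0.10 and -0.11, and Hk2, the inducible hexokinase, one of -0.07 (23.0, 24.5 and 29.1 TPM at 8 h, then 24.6, 24.9 and 25.8 TPM), and the sign of all 3 changed among the alternatives, without mouse 3 for each. Pfkfb3, which makes the activator of phosphofructokinase, fell from 16.4, 15.1 and 16.8 to 8.81, 8.37 and 7.44 TPM.

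Genes for the biosynthesis of lipids and nucleotides rose to a like extent. Sterol and fatty acid genes rose in 18 of 29 cases and fell in 1, with a median of 0.56. Dhcr7, the last step of cholesterol synthesis, rose from 3.19, 2.38 and 5.01 to 11.5, 11.9 and 9.79 TPM, and Scd2, a desaturase, from 1.11, 0.52 and 1.49 to 6.91, 6.20 and 5.88 TPM. The gene that fell was Fasn, the fatty acid synthase, from 56.0, 64.3 and 63.0 to 48.5, 49.6 and 44.4 TPM. Purine and pyrimidine synthesis rose in 16 of 24 cases and fell in 1, with a median of 0.38. Paics, of purine synthesis, rose from 203, 220 and 225 to 444, 476 and 460.4 TPM, while the 2 IMP dehydrogenases moved apart, Impdh2 rising from 536, 588 and 529 to 795, 816 and 816 TPM and Impdh1 falling from 56.3, 55.8 and 54.1 to 30.7, 35.0 and 32.3 TPM. Redox genes rose in 13 of 25 cases and fell in 2, with Gpx4, which protects membranes from lipid peroxides, going from 79.5, 58.8 and 65.6 to 323, 319.5 and 313 TPM and Prdx4, the peroxiredoxin of the endoplasmic reticulum, from 3.95, 6.22 and 5.53 to 46.0, 50.6 and 53.4 TPM.

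Cytosolic ribosomal proteins were called higher in 1 of 40 cases and lower in 15 (5 to 17 among the alternatives). Over all genes tested 25.2% were called higher and 32.1% lower. The median of these 40 genes was -0.04 and changed sign among the alternatives (-0.05 to 0.06). Their summed level was 143893 to 149823 TPM at 8 h and 136926 to 142469 TPM at 24 h. Ribosome biogenesis genes were called higher in 1 of 33 cases and lower in 16 (6 to 16 among the alternatives), with a median of -0.21, beside -0.09 for all genes. Ncl, nucleolin, was at 574, 635 and 607 TPM at 8 h, then 607, 625 and 616 TPM, and Fbl, fibrillarin, at 186, 213 and 230.4 TPM at 8 h, then 229.9, 211 and 195 TPM. Neither was called, and the sign of both log2 values (-0.03 and -0.02) changed with the scaling. Noc3l, a factor of the large subunit, fell from 26.9, 32.7 and 35.0 to 20.9, 21.3 and 19.2 TPM. Translation initiation factors were called higher in 4 of 28 cases (3 to 11 among the alternatives) and lower in 6. These counts stand beside the same 25.2% and 32.1% of all genes, and the median was 0.01.

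Of 24 chaperones 10 rose (6 to 13 among the alternatives) and none fell, among them the mitochondrial Hspd1, from 882, 1010 and 928 to 1587, 1597 and 1602 TPM. Of 25 genes of the endoplasmic reticulum and its unfolded protein response 6 rose and 5 fell (2 to 6), beside 25.2% and 32.1% of all genes. Their median of -0.10 changed sign among the alternatives (-0.15 to 0.02). Hspa5, the BiP chaperone, fell from 985, 1122 and 1092 to 769, 683 and 659.7 TPM and Dnajb9 from 50.1, 40.9 and 52.0 to 15.1, 18.0 and 16.7 TPM, while Sec11c, of the signal peptidase, rose from 119, 104 and 104 to 314, 306 and 320 TPM. The proteasome was called higher in 10 of 31 cases (6 to 14) and lower in 3, again beside 25.2% and 32.1% of all genes. Its median was 0.10. Both genes of its PA28 activator fell, Psme1 from 1076, 1088 and 1106 to 755, 748 and 769.5 TPM and Psme2 from 1508, 1586 and 1540 to 962, 974 and 943 TPM, whereas the immunoproteasome subunit Psmb8 rose from 476, 348 and 396 to 767, 662 and 659 TPM.

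**Figure D2:**
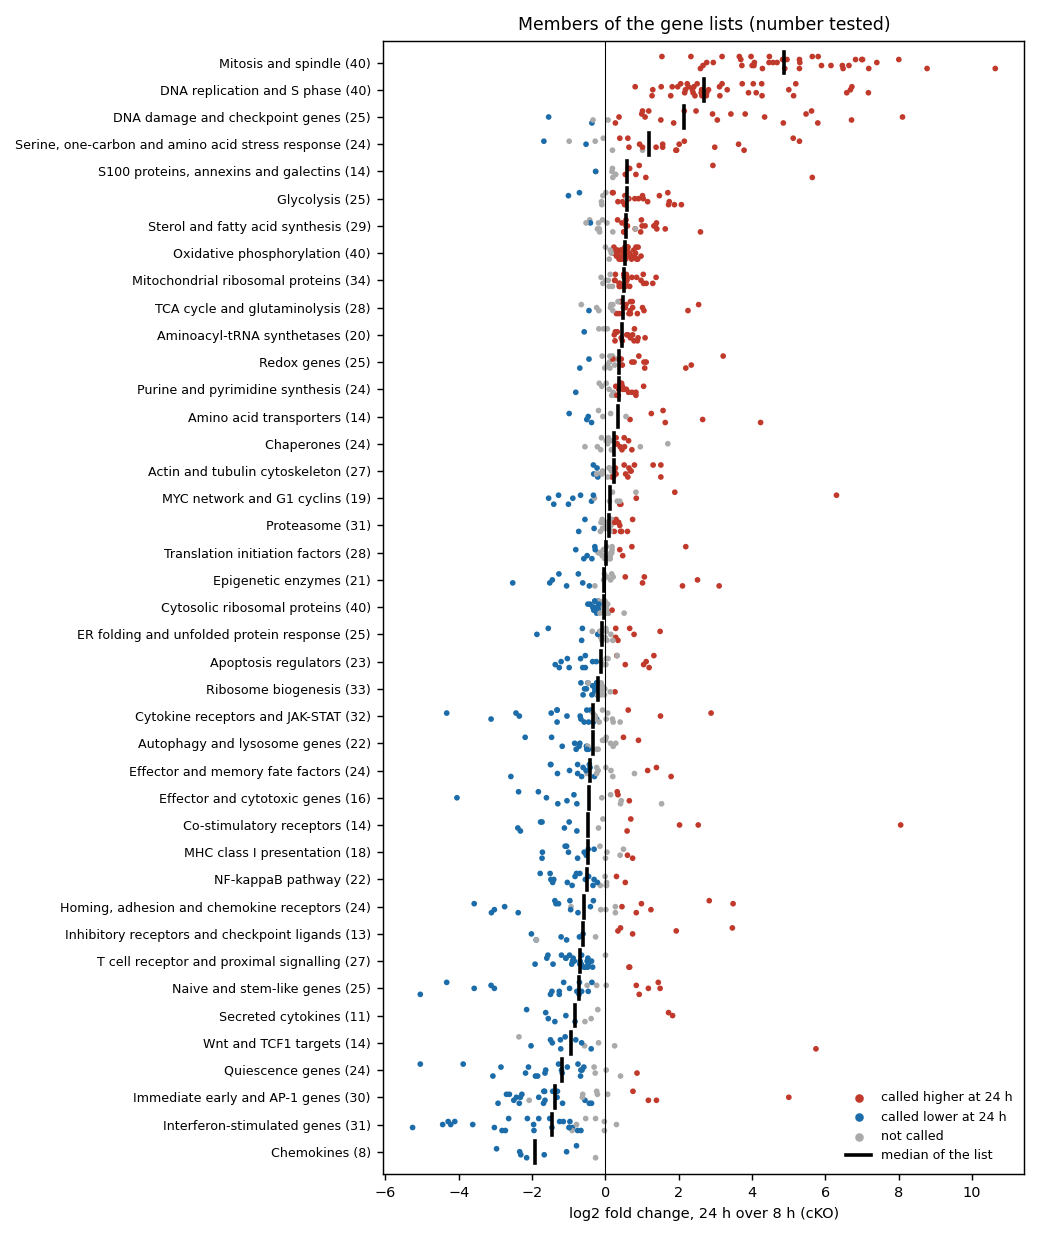
Each point is a tested member of a gene list, placed by its log2 fold change of 24 h over 8 h (x axis). Red points were called higher, blue points lower and grey points neither, black bars are medians, and the number tested is in brackets. Replication and mitosis hold red points alone, oxidative phosphorylation forms a narrow band above 0, and chemokines, interferon-stimulated genes and immediate early genes have the lowest medians.

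Immediate early and AP-1 genes, the first wave after receptor signals, fell in 20 of 30 cases and rose in 4, with a median of -1.38. Nr4a1, the orphan receptor Nur77 used as a reporter of receptor signals, fell from 644, 752 and 746 to 153, 144 and 137 TPM after a 4 h mean of 1734 TPM (log2 fold change -2.35, SE 0.139, adjusted p = 3.10e-12). Egr2, a zinc finger factor, fell from 129, 142 and 152 to 34.5, 30.5 and 25.0 TPM and Egr1 from 91.3, 86.8 and 94.0 to 40.7, 38.8 and 33.3 TPM. Fos, of the AP-1 dimer, went from 24.7, 36.6 and 32.4 to 5.31, 4.15 and 3.27 TPM and Fosl1 from 69.2, 86.4 and 82.7 to 15.7, 16.4 and 13.5 TPM. Irf4, whose level follows the strength of receptor signals, fell from 219.7, 249 and 288 to 103, 108 and 105 TPM and stayed far above its 0 h mean of 1.99 TPM. The 4 members that rose were Batf, Batf3, Jun and Jund, all AP-1 proteins. Batf, the partner of IRF4 on DNA, rose from 42.4, 37.1 and 39.9 to 107, 105 and 110 TPM, and Jun from 14.1, 11.5 and 10.5 to 21.2, 20.6 and 21.1 TPM. Batf3 had 3 counts at 8 h and was at 14.1, 14.0 and 14.3 TPM at 24 h, a ratio of 35.4 with a counting interval of 11.9 to 173. The call for Jund, at 0.90, 1.63 and 0.96 TPM at 8 h, then 3.81, 2.06 and 2.41 TPM, was lost without mouse 1 (adjusted p = 0.167).

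NF-kappaB genes fell in 15 of 22 cases and rose in 2, with a median of -0.50. Rel, the c-Rel subunit of lymphocyte activation, fell from 137, 133 and 166 to 58.5, 57.2 and 53.5 TPM and Nfkbiz, a nuclear cofactor, from 33.3, 37.2 and 43.4 to 11.5, 12.0 and 10.8 TPM. Malt1, the paracaspase that links the receptor to this pathway, fell from 32.7, 36.5 and 43.9 to 13.3, 15.9 and 11.8 TPM.

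Chemokines fell in 7 of 8 tested cases and none rose, with a median of -1.91. Xcl1 (chromosome 1, 164931644 to 164935527), which attracts cross-presenting dendritic cells, was at 16631, 16020 and 14212 TPM at 8 h, then 4103, 3626 and 3019 TPM at 24 h (log2 fold change -2.15, SE 0.149, adjusted p = 2.72e-10). Ccl4 was at 21089, 22262 and 22545 TPM at 8 h, then 5008, 4249 and 4023 TPM and Ccl3, a related inflammatory chemokine, at 8425, 8277 and 7605 TPM at 8 h, then 2974, 2560 and 2276 TPM. After this fall each of the 3 was still at 2276 TPM or more in every library. Cxcl10, an interferon-induced chemokine, fell from 62.7, 46.0 and 70.1 to 11.5, 12.2 and 13.1 TPM. Ccl5, a chemokine of memory and effector cells, fell from 225, 95.4 and 87.2 to 18.7, 16.2 and 17.9 TPM, with mouse 1 far above the other 2 at 8 h and the 3 mice close together at 24 h.

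Secreted cytokines fell in 6 of 11 tested cases and rose in 2, with a median of -0.83 (-1.20 to -0.24 among the alternatives). Tnf fell from 931, 888 and 936 to 317, 309 and 287 TPM and Ifng, interferon gamma, from 533, 429.5 and 462 to 330, 215 and 276 TPM. Ifng thus fell by less than Tnf on the log2 scale (-0.83 and -1.63). Il2, the T cell growth factor, was at 2409, 1841 and 1685 TPM at 8 h, then 1717, 1476 and 1468 TPM and was not called in the unpaired fit (-0.39, adjusted p = 0.111), but it was called lower with the mouse as a block (-0.37, adjusted p = 0.00372). Tnfsf11, which encodes RANKL, rose from 23.2, 31.1 and 44.0 to 135, 109 and 88.0 TPM and Osm, oncostatin M, from 2.78, 2.51 and 3.40 to 12.4, 9.17 and 10.3 TPM. Csf2, at 0.23 to 0.74 TPM at 8 h and 0 to 0.18 TPM at 24 h, was too low to be tested.

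Effector and cytotoxic genes did not rise together: 3 of 16 were called higher (1 to 5 among the alternatives) and 8 lower, with a median of -0.44. Gzmb (chromosome 14, 56258838 to 56262260), granzyme B, was at 548, 739 and 578 TPM at 8 h, then 1241, 885 and 911 TPM at 24 h, a log2 fold change of 0.65 with SE 0.163 (adjusted p = 0.00201). Its rise was largest in mouse 1, and without that mouse it was 0.39 and no longer called (adjusted p = 0.0685). Gzmc, granzyme C, at 56231441 to 56234656 of the same chromosome, went the other way. It was at 294, 383 and 266 TPM at 8 h, then 19.6, 22.9 and 16.3 TPM at 24 h, a log2 fold change of -4.05 with SE 0.207 (adjusted p = 3.83e-14), and its 4 h mean was 199 TPM. Prf1, perforin, fell from 93.9, 82.4 and 59.6 to 57.7, 45.4 and 32.0 TPM in the same order of mice at both times, a call lost when only the 2 cKO groups were fitted (adjusted p = 0.0796). Fasl, the death ligand, fell from 18.6, 15.9 and 15.5 to 4.99, 4.44 and 5.18 TPM. Srgn, the granule proteoglycan serglycin, fell from 1402, 1585 and 1546 to 624, 656 and 615 TPM and Ctsw, cathepsin W, from 385, 323 and 344 to 78.2, 73.1 and 58.5 TPM. Serpinb9, the granzyme B inhibitor, was at 397, 428 and 369 TPM at 8 h, then 419, 390.1 and 343 TPM and was not called.

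Inhibitory receptors and their ligands split, with 5 of 13 higher, 6 lower and a median of -0.61. Ctla4, which competes with CD28 for its ligands, rose from 2.37, 2.36 and 3.36 to 26.1, 34.4 and 30.5 TPM. Tigit rose from 15.7, 15.9 and 17.0 to 70.9, 62.9 and 56.2 TPM and Lag3, a receptor for MHC class II, from 70.9, 98.2 and 70.2 to 129.8, 148 and 138 TPM. Pdcd1, which encodes PD-1, instead fell from 149, 174 and 156 to 81.7, 79.0 and 77.5 TPM, and its ligand gene Cd274 from 117, 104 and 124 to 28.9, 29.6 and 28.8 TPM. Cd160 fell from 93.5, 118 and 105 to 31.3, 33.3 and 23.7 TPM. Havcr2, TIM-3, was low, at 1.83, 2.21 and 1.42 TPM at 8 h, then 1.09, 0.91 and 0.46 TPM, and its call was lost under 4 alternatives.

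Co-stimulatory receptors and ligands also split, with 5 of 14 higher, 7 lower and a median of -0.49. Cd28 itself rose slightly, from 21.5, 23.9 and 25.4 to 32.6, 34.2 and 43.0 TPM (0.59, adjusted p = 0.00687, and 0.0611 without mouse 3). Tnfrsf4, OX40, rose from 89.9, 93.8 and 67.1 to 357, 364 and 331 TPM, while Tnfrsf9, 4-1BB, fell from 339, 423 and 370.1 to 130.2, 111 and 102 TPM. These 2 receptors of the same family, with OX40 below 4-1BB in every mouse at 8 h, stood in the reverse order in every mouse at 24 h. Cd70 rose from 17.7, 7.65 and 2.18 to 59.0, 60.0 and 48.6 TPM, with the 8 h values of the 3 mice far apart and the 24 h values close together. Tnfsf14, LIGHT, fell from 259.9, 272 and 278 to 46.8, 58.1 and 54.3 TPM, and Tnfrsf8, CD30, had 0 counts at 8 h and 4.38, 5.08 and 4.42 TPM at 24 h, at least 28.2-fold higher.

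Of 32 cytokine receptor and JAK-STAT genes 3 rose and 18 fell, with a median of -0.34. Il7r (chromosome 15, 9505788 to 9530176), the receptor for the survival factor IL-7, was among the 15 largest falls, from 182, 94.2 and 132 to 10.1, 5.93 and 4.91 TPM (log2 fold change -4.33, SE 0.274, adjusted p = 3.88e-10). The receptors for IL-6, Il6ra and its partner Il6st, fell from 10.3, 5.23 and 9.20 to 1.11, 0.54 and 1.27 TPM and from 20.4, 20.3 and 22.9 to 3.82, 5.01 and 3.97 TPM. Il2ra, the high-affinity IL-2 receptor chain, fell only from 97.0, 105 and 104 to 77.8, 80.7 and 72.4 TPM. The genes that rose were Il12rb1, from 21.0, 33.6 and 19.7 to 71.4, 78.9 and 69.9 TPM, Jak3, and Socs2, a feedback inhibitor of JAK-STAT signals, from 0.46, 1.09 and 1.35 to 8.71, 5.40 and 6.39 TPM. T cell receptor and proximal signalling genes fell in 24 of 27 cases and rose in 2, with a median of -0.69. Zap70, the kinase bound to the activated receptor, fell from 360, 435 and 408 to 187, 184 and 169 TPM, Lcp2, its adaptor SLP-76, from 301, 298 and 275 to 117, 119 and 100.3 TPM, and Ptpn22, a phosphatase that restrains the receptor, from 196, 197 and 199.6 to 58.3, 55.5 and 48.0 TPM. The 2 that rose were Csk, the kinase that inhibits LCK, and Nfatc2.

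Naive and stem-like genes fell in 17 of 25 cases and rose in 5, with a median of -0.72. Klf2 (chromosome 8, 72319033 to 72321656), the quiescence and homing factor, fell from 13.6, 10.2 and 16.2 to 0.52, 0.46 and 0.20 TPM, and its target S1pr1, which lets T cells leave lymph nodes, from 64.0, 32.3 and 49.9 to 5.50, 3.74 and 3.33 TPM. For both genes, as for Il7r, mouse 2, whose 8 h library lay nearest to 24 h on the first principal component, was the lowest at 8 h, and the fall was measured in all 3 mice. Lef1, the relative of Tcf7, fell from 120.4, 80.1 and 105 to 76.0, 71.0 and 68.7 TPM, and Satb1, a chromatin organiser, from 34.0, 29.0 and 35.6 to 12.4, 12.8 and 11.7 TPM. Ccr7 (chromosome 11, 99144196 to 99155077), the chemokine receptor for entry into lymph nodes, rose instead, from 351, 308 and 344 to 577, 613 and 657 TPM (log2 fold change 0.84, SE 0.0796, adjusted p = 3.01e-11), after a mean of 995 TPM at 0 h and 478 TPM at 4 h. Dapl1 likewise fell from a 0 h mean of 625 TPM to 65.0, 41.0 and 41.4 TPM at 8 h and was at 134, 137 and 138 TPM at 24 h. Igfbp4 had a 0 h mean of 223 TPM, was at 22.4, 14.4 and 12.8 TPM at 8 h and was called higher at 24 h, at 35.8, 31.1 and 30.6 TPM. Genes of this list thus did not all keep falling, and Ccr7 and Dapl1 remained below their 0 h means.

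Quiescence genes fell in 19 of 24 cases and rose in 1, Slfn5, with a median of -1.19. Pik3ip1, an inhibitor of PI3K, fell from 61.8, 34.2 and 49.2 to 4.44, 2.23 and 3.52 TPM. Btg1, an antiproliferative factor of naive T cells, fell from 58.8, 47.8 and 56.5 to 16.3, 14.7 and 15.7 TPM, and Zfp36l1, which binds and destabilises mRNA, from 104, 117 and 125 to 26.4, 27.2 and 25.1 TPM. Homing and adhesion genes fell in 13 of 24 cases and rose in 6, with a median of -0.58. Among all genes 32.1% were called lower and 25.2% higher, so the count of rises is near that share. Cxcr6, the chemokine receptor named in the series title, fell from 252, 238 and 228 to 57.5, 45.5 and 39.5 TPM, with a log2 fold change of -2.38 (SE 0.133). Itgae, CD103, fell from 59.5, 40.2 and 50.3 to 6.35, 6.64 and 4.91 TPM, while Ccr4 rose from 1.83, 1.81 and 2.09 to 21.1, 23.6 and 22.3 TPM and Itgb1, integrin beta 1, from 24.5, 25.4 and 28.0 to 55.6, 54.3 and 49.0 TPM.

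Effector and memory fate factors were called lower in 13 of 24 cases (9 to 14 among the alternatives) and higher in 3 (3 to 6), with a median of -0.43. Tbx21, T-bet, was at 77.4, 90.6 and 98.9 TPM at 8 h, then 109, 106 and 101 TPM at 24 h and was not called, and Irf8, at 238, 265 and 288 TPM at 8 h, then 318, 297 and 289 TPM, was not called either. Both were called higher when only the groups compared were fitted. Eomes, the relative of T-bet, was at 5.65, 4.28 and 4.18 TPM at 8 h, then 6.14, 2.24 and 2.04 TPM. It was not called in the unpaired fit (-0.50, adjusted p = 0.302) and was called lower with the mouse as a block (-0.63, adjusted p = 0.043) and without mouse 1 (-1.04, adjusted p = 0.0138), although the value of mouse 1 was higher at 24 h. Zbtb32, a repressor of cytokine genes, rose from 58.2, 47.3 and 37.7 to 191, 168 and 156 TPM. Bcl6, of memory and follicular fates, fell from 4.65, 5.87 and 7.28 to 1.35, 0.65 and 1.08 TPM, and Zeb2, of terminal effectors, from 3.62, 2.83 and 3.62 to 1.12, 1.23 and 1.35 TPM. Id3 was not called, at 373, 455 and 366 TPM at 8 h, then 331, 361 and 350.4 TPM, and the call of Id2 as lower (-0.53) was lost under 7 alternatives.

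Wnt and TCF1 target genes fell in 9 of 14 cases and rose in 1, with a median of -0.95, and the list holds Tcf7 and Lef1 themselves. Tcf7 fell by 1.50 on the log2 scale (SE 0.127, adjusted p = 3.49e-11). The corepressor gene Tle4 fell from 5.16, 5.54 and 5.80 to 2.46, 3.06 and 2.42 TPM and Znrf3, a ligase that removes Wnt receptors, from 16.5, 14.6 and 15.3 to 6.56, 6.91 and 7.04 TPM. The gene that rose, Tcf7l1, had 0 counts at 8 h and only 0.48, 0.54 and 0.52 TPM at 24 h, at least 5.58-fold higher.

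**Figure D3:**
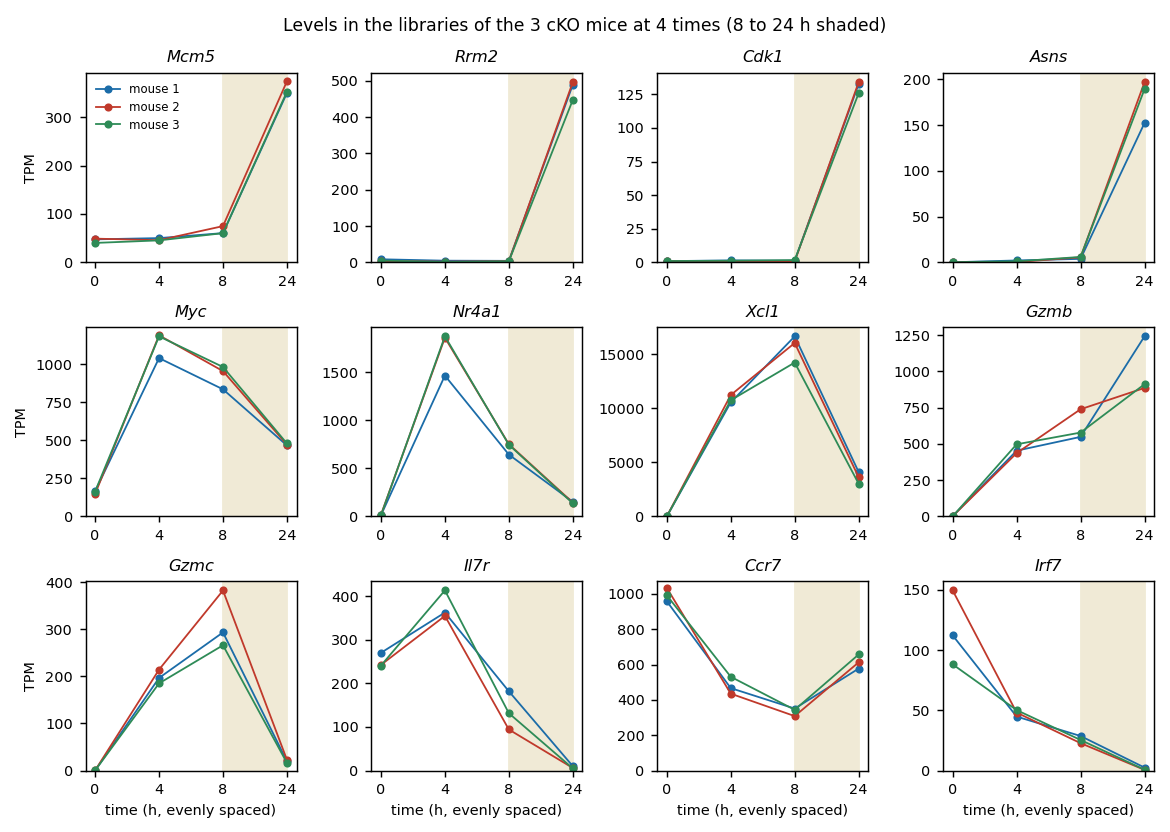
TPM of 12 genes in the libraries of the 3 cKO mice at 0, 4, 8 and 24 h, with the times evenly spaced on the x axis, 1 coloured line per mouse and the step from 8 to 24 h shaded. Mcm5, Rrm2, Cdk1 and Asns rise almost only in the shaded step, Myc, Nr4a1, Xcl1 and Gzmc peak at 4 or 8 h, Il7r and Irf7 end near 0, and Ccr7 turns upward.

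Interferon-stimulated genes fell in 24 of 31 tested cases and none was called higher, with a median of -1.46 (-1.56 to -0.95 among the alternatives). Irf7 (chromosome 7, 141262706 to 141266481), the factor that amplifies type I interferon, fell from 28.7, 22.7 and 25.4 to 2.48, 0.58 and 0.72 TPM, a log2 fold change of -4.44 with SE 0.294 (adjusted p = 3.82e-12), after 117 TPM at 0 h and 47.7 TPM at 4 h. Rtp4 went from 53.1, 33.9 and 39.2 to 4.21, 1.19 and 1.28 TPM, Ifit3 from 38.6, 18.2 and 15.3 to 3.98, 0.84 and 1.36 TPM and Oasl2 from 11.6, 5.81 and 10.8 to 0.47, 0.16 and 0.11 TPM. Mouse 1 was the highest of the 3 mice at both times for each of these 4 genes. Ddx58, the RIG-I sensor of viral RNA, fell from 9.96, 4.25 and 9.13 to 1.52, 1.15 and 1.17 TPM, and Stat2, of the interferon receptor pathway, from 12.3, 8.30 and 13.7 to 3.71, 2.74 and 2.64 TPM. Ifnar1, a chain of that receptor, fell from 58.3, 41.9 and 62.8 to 21.1, 22.6 and 23.4 TPM.

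MHC class I presentation genes fell in 11 of 18 cases and rose in 2, with a median of -0.49. B2m, the light chain of every class I molecule, fell from 5637, 5177 and 5545 to 2818, 2616 and 2580 TPM, and Tapbp, tapasin, from 228, 170.3 and 227 to 118, 107 and 96.0 TPM. H2-Q9 fell from 531, 417 and 377 to 151, 141 and 120.4 TPM, although genes of the H2-Q family are so alike that reads can be split among them. The 2 members that rose were the immunoproteasome genes Psmb8 and Psmb9.

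Among the 15 largest decreases, those not yet described were Gvin1, from 64.1, 29.8 and 47.5 to 1.78, 1.88 and 1.80 TPM, Pydc3, from 40.0, 37.3 and 49.7 to 3.36, 2.24 and 1.69 TPM, and Gp49a, from 41.7, 30.9 and 19.6 to 2.97, 2.63 and 2.40 TPM, all members of families of close copies. Cd7, a surface protein of naive T cells, fell from 33.5, 15.0 and 28.0 to 1.72, 1.53 and 1.28 TPM after a 0 h mean of 361 TPM. Hsd11b1, which activates glucocorticoids, fell from 35.6, 32.6 and 39.1 to 2.40, 3.20 and 1.38 TPM. Sult2b1, a sulfotransferase of sterols, went from 33.3, 54.7 and 47.4 to 3.99, 4.63 and 3.81 TPM and had been at 0.833 TPM at 0 h, so it rose and fell within the day. The last was Xkrx, on the X chromosome, from 18.1, 9.31 and 23.1 to 1.02, 1.33 and 1.20 TPM.

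Survival genes moved in both directions: of 23 apoptosis regulators 6 rose (3 to 7 among the alternatives) and 11 fell, with a median of -0.12. Among all genes 25.2% were called higher and 32.1% lower. Bcl2 fell from 56.6, 31.0 and 45.4 to 17.0, 18.3 and 16.1 TPM, and Bcl2l1, its relative BCL-XL, rose from 126, 159 and 158 to 206, 238 and 220 TPM. Bcl2l11, the killer BIM, fell from 16.6, 13.0 and 14.8 to 7.28, 7.23 and 8.28 TPM.

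Epigenetic enzymes rose in 6 of 21 cases and fell in 8, with a median of -0.03 that changed sign among the alternatives (-0.08 to 0.07). These counts are near the shares over all genes, 25.2% higher and 32.1% lower. Those that rose included Dnmt1, which copies DNA methylation after replication, from 20.8, 19.8 and 21.0 to 87.6, 94.0 and 90.5 TPM, Hells, which helps it, from 13.2, 12.2 and 12.0 to 104, 115 and 113 TPM, and Ezh2, the H3K27 methylase, from 15.9, 16.8 and 18.0 to 106, 96.3 and 96.0 TPM. Ezh1, the form of non-dividing cells, fell from 21.6, 17.5 and 22.9 to 7.45, 7.95 and 6.83 TPM, and Kdm6b, which removes the mark that EZH2 sets, from 39.3, 43.0 and 52.3 to 7.84, 8.81 and 7.36 TPM.

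Autophagy and lysosome genes fell in 10 of 22 cases and rose in 2, with a median of -0.35. Sqstm1, the p62 adaptor, fell from 353, 367 and 347 to 138, 135 and 124 TPM. Actin and tubulin genes rose in 15 of 27 cases (9 to 17 among the alternatives) and fell in 4 (1 to 4), with a median of 0.22. The tubulins led, Tubb5 rising from 638, 592 and 653 to 1861, 1867 and 1793 TPM and Tuba1b from 1543, 1802 and 1752 to 4376, 4389 and 4204 TPM. S100, annexin and galectin genes rose in 8 of 14 cases (5 to 11) and fell in 1, with Lgals1, galectin-1, going from 9.24, 6.87 and 3.47 to 57.1, 53.5 and 46.1 TPM after a 0 h mean of 125 TPM.

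Placed within the whole course of the libraries labelled cKO, the genes that fell had peaked at different times. Of the 1599 genes called at least 2-fold lower, the mean scaled count was highest at 0 h for 665 (41.6%), at 4 h for 560 (35.0%) and at 8 h for 374 (23.4%). Cd7 and Irf7 belong to the first kind by their means, Nr4a1, Myc and Il7r to the second and Xcl1 and Gzmc to the third. Of the 1216 genes called at least 2-fold higher, the mean was lowest at 0 h for 321 (26.4%), at 4 h for 462 (38.0%) and at 8 h for 433 (35.6%). These are counts of group means, with no test.

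Set beside WT, the change was much alike. In mice 4 to 6 the same contrast gave 2828 genes higher and 3906 lower, and the log2 fold changes of the 11470 genes correlated across genes with a Pearson r of 0.914, as a description, since genes are not independent replicates. Of the 1216 genes called at least 2-fold higher in cKO, 1208 had a positive value in WT, and of the 1599 lower genes 1586 had a negative one. The list medians in WT were 2.55 for replication, 5.18 for mitosis, 1.14 for serine and amino acid stress genes, -2.03 for chemokines and -1.63 for interferon-stimulated genes.

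The test of the difference between the 2 changes called 1 gene, Tcf7 (0.00872% of the genes tested), and 510 genes had an unadjusted p under 0.05 (4.45%). Tcf7 fell by 1.50 in cKO and had a log2 fold change of -0.17 in WT, an interaction of -1.33 (adjusted p = 3.20e-04). The call was lost when only the 4 groups compared were fitted (adjusted p = 0.592) and without mouse 3 (adjusted p = 0.362), with values of -1.37 and -1.39, and the adjusted p over the other alternatives was 1.38e-18 to 0.0315. Next after it by p among genes named here, Fasl fell by 1.83 in cKO and had a log2 fold change of 0.25 in WT, an interaction of -2.07 that did not pass (adjusted p = 0.972). In WT Fasl was very low at both times, with means of 0.447 TPM at 8 h and 0.623 TPM at 24 h. The cKO means were 16.6 and 4.87 TPM, so the WT change rests on few reads. Gzmb rose by 0.65 in cKO and 1.01 in WT, Ifng had changes of -0.83 and -1.49, and Cxcr6 of -2.38 and -2.61, none of which was called different between the genotypes.

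**Figure D4:**
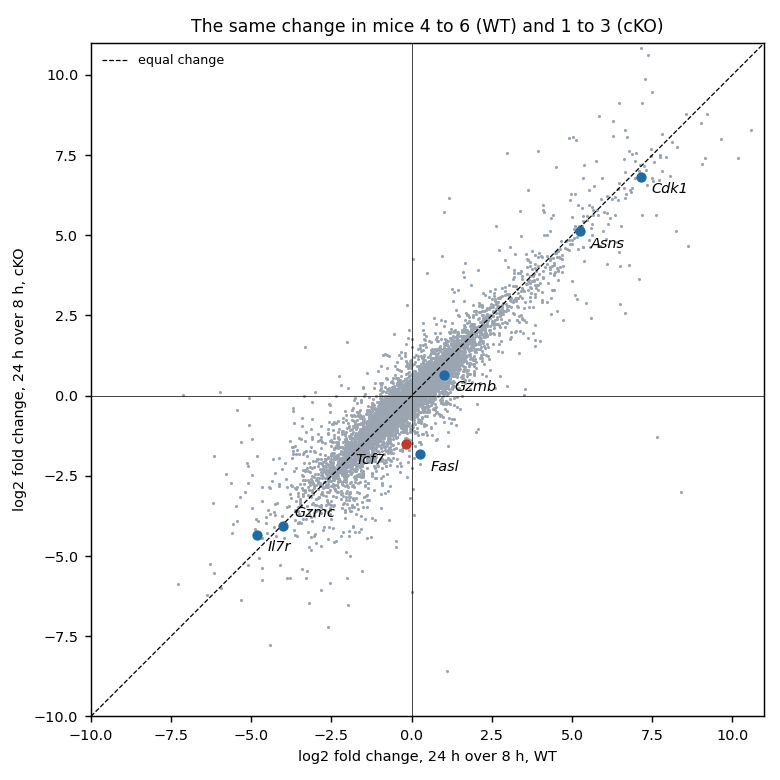
Each point is 1 of 11470 genes, placed by its log2 fold change of 24 h over 8 h in WT (x axis, mice 4 to 6) and in cKO (y axis, mice 1 to 3), and the dashed line marks equal change. Cdk1, Asns, Gzmb, Gzmc and Il7r lie near the line, Tcf7 (red, -0.17 in WT and -1.50 in cKO) and Fasl lie below it. The level of Fasl in WT was very low at both times.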

How the data were processed

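RNA of sorted CD8+ T cells was measured in 24 libraries, 8 groups of 3. They came from 6 mice, each sampled at 0, 4, 8 and 24 h. Per the submitters' processing notes STAR, RSEM, DESeq2 and the build mm10 were used by the authors, with versions not given in the sources used here. The authors deposited, per the file headers, an expected count, TPM and FPKM for each of 23420 genes; the expected counts are RSEM's estimates of reads per gene, TPM is corrected for length and library total, and FPKM was not used here. Reads shared between near-identical copies are divided among them by RSEM, so single members of such families are uncertain.

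Expected counts were rounded to whole numbers, genes were kept by filterByExpr (11470) and scaled by TMM, and edgeR 4.0.16 in R 4.3.3 fitted 8 group means with a robust quasi-likelihood test (16 residual degrees of freedom). The contrasts were cKO 24 h minus 8 h, the same in WT, and their difference, each two-sided with Benjamini-Hochberg adjustment over all genes kept and calls at an adjusted p under 0.05. The procedure was run on simulated data in which few genes changed, equally many in each direction. That run does not test the scaling where most genes are called, as here. Log2 fold changes and their SE are from this fit; levels are TPM. Depth was 5846265 to 9700397 expected counts a library; replicate libraries of the 2 groups differed by more than sampling noise. Same-numbered libraries came from the same mouse, which pairs them; their deviations from the group means correlated at 0.0686, 0.0372 and 0.0781 for mice 1, 2 and 3, and the block of mouse was run as an alternative. Others were DESeq2 1.42.0 (size factors and Wald test), limma 3.58.1 on log2(TPM + 1), other filters, leaving out Rn45s, only the groups compared, and leaving out mice.

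Genes named are the 15 largest increases and 15 largest decreases among called genes without overlap whose mean reached 10 TPM in the group where it was higher, 77 key genes, and up to 4 called members of each of 41 lists with the smallest adjusted p in each direction; Pycr1, Nupr1, Cdc20, Cdc6 and Mcm6 were chosen for their promoters after their letters were seen. Some genes that these rules name are not reported here. Members and lists were chosen with earlier results of these data known. Coordinates are from GENCODE vM21, the mm10 assembly.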

Additional observations from a re-analysis of the deposited data

Results flagged for a closer look

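Tcf7 is singled out because its change from 8 to 24 h differed between the genotypes by the test of the difference itself. The interaction was -1.33 on the log2 scale (adjusted p = 3.20e-04, edgeR's quasi-likelihood test), from a log2 fold change of -1.50 in the libraries labelled cKO and -0.17 in WT. By the same test the call was lost with only the groups compared (adjusted p = 0.592) and without mouse 3 (adjusted p = 0.362). The level fell in 3 of 3 cKO mice, and in WT it was lower at 24 h in mice 4 and 6 and higher in mouse 5.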

How the results depend on the processing

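The number of genes called between 24 and 8 h was 5446 to 6841 over 12 alternatives, beside 6573, within 1.5 times of it. The share of calls that were higher was 43.9% in the fit reported and 44.1% to 50.6% over the alternatives. More genes were called higher than lower with only the groups compared (3453 and 3367) and without mouse 3 (2736 and 2710). Leaving out a mouse gave 5446 to 5696 calls. The log2 fold changes of single genes shifted from the fit reported by a median of 0.11 with no filter on low counts, and by less under the other settings. The median over the genes tested ran from -0.15 with no filter to -0.01 with a filter of 5 CPM, beside -0.09. Of 292 named genes that were called, 264 kept their call in every alternative and 28 lost it in at least 1. Of the 14 not called, 5 were called somewhere. With mice 1 to 3 paired as a replicate block, 6527 genes were called, and among the named genes only Il2 and Eomes changed their call. The number of genes with a called interaction, 1 in the fit reported, was 2 with no filter, 2 with limma, 0 with only the groups compared and 0 without mouse 3, and 0 to 1 over the 6 fits that left out a mouse. The sign changed in 6 named genes, none of them called. Fbl was at 0.04 with DESeq2's size factors, its Wald test, without Rn45s, with only the groups compared and without mouse 2, at 0.08 with no filter, 0.02 with a filter of 5 CPM and with limma, 0.13 without mouse 3 and 0.03 without the 8 h library of mouse 2. Ncl was at 0.04 with DESeq2's size factors, its Wald test, without Rn45s and with only the groups compared, 0.08 with no filter, 0.02 with a filter of 5 CPM, 0.03 with limma, 0.05 without mouse 2 or its 8 h library and 0.01 without mouse 3. Hk2 was at 0.04 with no filter and without mouse 3, Slc2a1 at 0.01 in both, Slc2a3 at 0.03 without mouse 3, and Serpinb9 at 0.00 with no filter. Leaving out mouse 1, 2 or 3, the values ran from -0.17 to 0.13 for Fbl, -0.05 to 0.05 for Ncl, -0.13 to 0.04 for Hk2, -0.18 to 0.01 for Slc2a1 and -0.19 to 0.03 for Slc2a3. The cause of these changes was not tested. Depth limits genes with few counts at 8 h, for which only bounds or wide counting intervals could be given.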
